A study of Mus musculus with 9 samples.

Results

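The genes of cholesterol synthesis, sensing and lysosomal export were examined in microglia, the resident macrophages of the brain, sorted from 2 mouse models of lysosomal storage disease. The set holds 29 of the 24421 genes in the count table, chosen by name: 16 enzymes of the synthesis pathway, 5 genes of the SREBP sensing machinery, 3 genes of cholesterol transport, 3 genes of the LXR arm, and the esterifying and hydroxylating enzymes *Soat1* and *Ch25h*. All 29 were found in the table and all passed the filter on low counts. RNA was sequenced from 9 libraries, 3 per group. MLIV libraries came from *Mcoln1*-/- mice, which model mucolipidosis type IV and lack the lysosomal cation channel mucolipin-1. FD libraries came from Fabry disease mice, described in the study as *Gla* y/-, which lack the lysosomal enzyme alpha-galactosidase A. WT libraries came from littermate controls. The strain label of every library is C57CL6J, as spelled there. The series title gives an age of 4 months and the study's text gives 2 months, and the labels do not say which or how many animals went into a library. The *Mcoln1*-/- mice were bred from heterozygous parents and the *Gla* mice were kept as a line of homozygotes, so that colony and genotype cannot be told apart for FD. Both deletions are present in every cell of the animal, not in microglia alone. Cells were gated on CX3CR1, CD45 and CD11b.

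Cells make cholesterol from acetyl-CoA through mevalonate, squalene and lanosterol, and they also take it up as lipoprotein cholesteryl ester, which is hydrolysed in lysosomes. NPC2, a soluble protein of the lysosome lumen, binds the freed cholesterol and hands it to NPC1 in the lysosomal membrane, from where it reaches the endoplasmic reticulum. There SCAP and the INSIG proteins sense the sterol level and hold back the SREBP transcription factors, which switch on the synthesis genes, while oxysterols activate the LXR receptors, whose targets drive efflux. In microglia this traffic is known to be loaded heavily by the engulfment of myelin and cell debris.

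Before any comparison, the libraries were set against their labels. *Mcoln1* had 0, 0 and 18 counts in the MLIV libraries, 1442, 1227 and 892 in FD, and 1082, 1517 and 2 in WT. The library labelled WT replicate 3 thus went against its label, and every comparison was made with all 9 libraries as labelled and again with 8, without that library. *Gla* stood at 4.82, 4.83 and 4.56 CPM (counts per 1e+06 counts of the library, scaled by TMM factors) in the FD libraries, against 4.59, 8.17 and 10.8 CPM in the WT libraries, so that the counts over this gene did not check the FD label. *Xist*, expressed from the inactive X chromosome, ranged between 4.00 and 1449 CPM in MLIV and stood at 1358 to 1522 CPM in FD and 0.523 to 4.12 CPM in WT. Sex therefore cannot be told apart from genotype in FD against WT. It was also unbalanced in MLIV against WT and in MLIV against FD, because MLIV held both high and low *Xist* values, and its part there was not tested. The high *Xist* of every FD library went against *Gla* y/-, which is the genotype of a male. The libraries held 22772260 to 37801159 counts. FD replicate 3 had counts for 12032 genes, the fewest of the 9, and 22.3% of the tested genes were at 0 counts there, against 0.0522% to 5.84% in the other libraries. WT replicate 1 had counts for 22932 genes, the most of the 9, against 16143 and 16092 in WT replicates 2 and 3. It also had the lowest total, 22772260 counts. Summed microglial markers were at 17531 to 21008 CPM in MLIV, 16225 to 19279 CPM in FD and 17910 to 21094 CPM in WT. The 7 neutrophil markers summed to 139 to 261 CPM in MLIV, 1.34 to 4.98 CPM in FD and 23.9 to 53.9 CPM in WT. The 5 border macrophage markers summed to 186 to 258 CPM in MLIV, 53.7 to 249 CPM in FD and 53.8 to 491 CPM in WT, with the highest value in the library labelled WT replicate 3. The part of these cells in the results below was not tested.

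Of the 29 genes, 24 had a promoter in the RefSeq table (GRCm38.p6, the same coordinates as mm10), taken as 250 bases before to 50 bases after an annotated start. *Fdps*, *Fdft1*, *Sqle*, *Npc1* and *Stard4* were not in it. The motifs were searched on both strands: the sterol response element of SREBP factors in the letters TCACNCCAC, the CCAAT box of NF-Y, an SREBP partner factor, and the lysosomal E-box TCACGTGA of the MiT/TFE factors. The sterol response element in these letters was present in 1 of the 24 genes, *Hmgcs1*, and in 1.44% of all genes with a promoter. The CCAAT box was present in 19 of 24, against 41.1% of all genes, and the E-box in 0 of 24, against 1.12%. Some genes have several annotated starts, and a gene was counted if any of its promoters matched. Shown are *Npc2*, the one gene that passed the test, *Hmgcs1*, the one with the sterol element, and *Sc5d*, the enzyme with the lowest unadjusted p in FD against WT. Capitals mark matches, and a CCAAT box on the opposite strand reads ATTGG. The *Npc2* promoter lies at chr12:84773063-84773362 on the minus strand, that of *Hmgcs1* at chr13:119690101-119690400 on the plus strand, and that of *Sc5d* at chr9:42264251-42264550 on the minus strand.
Npc2: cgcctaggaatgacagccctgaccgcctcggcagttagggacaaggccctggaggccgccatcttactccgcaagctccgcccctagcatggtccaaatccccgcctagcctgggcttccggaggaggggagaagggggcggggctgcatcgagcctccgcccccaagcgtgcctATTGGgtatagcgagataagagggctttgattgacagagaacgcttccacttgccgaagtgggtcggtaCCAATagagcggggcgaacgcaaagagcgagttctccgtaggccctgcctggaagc
Hmgcs1: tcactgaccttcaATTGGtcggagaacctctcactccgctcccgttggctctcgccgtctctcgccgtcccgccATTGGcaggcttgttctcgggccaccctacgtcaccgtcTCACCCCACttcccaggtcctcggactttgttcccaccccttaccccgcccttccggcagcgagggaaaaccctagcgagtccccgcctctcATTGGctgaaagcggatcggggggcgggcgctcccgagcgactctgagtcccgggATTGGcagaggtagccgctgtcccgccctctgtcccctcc
Sc5d: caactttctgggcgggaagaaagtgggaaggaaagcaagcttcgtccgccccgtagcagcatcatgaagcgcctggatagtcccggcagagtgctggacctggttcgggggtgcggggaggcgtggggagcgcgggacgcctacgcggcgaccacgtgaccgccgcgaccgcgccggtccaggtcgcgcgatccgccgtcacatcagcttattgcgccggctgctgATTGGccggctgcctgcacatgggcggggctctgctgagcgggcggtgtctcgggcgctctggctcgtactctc
*Hmgcs1* holds the sterol element and 4 CCAAT boxes, *Npc2* holds 2 CCAAT boxes and *Sc5d* holds 1, and none of these matches overlaps another. A match describes the letters in this window and is not evidence of binding. Lack of a match does not show that an element is absent, since it may be spelled otherwise or lie outside the window.

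The genes spanned a wide range of levels, and the transcripts of *Mylip*, *Npc2*, *Npc1*, *Soat1* and *Nr1h2* stood above every synthesis enzyme, while *Stard4* and *Nr1h3* stood below most of them. On the scale of CPM per kilobase of exon, *Mylip*, which encodes the ubiquitin ligase IDOL, had the highest median over the 9 libraries at 158, followed by *Npc2* at 80.6, *Npc1* at 50.5, *Soat1* at 43.1 and *Nr1h2*, encoding LXR beta, at 41.9. The ranges of neighbours among these 5 genes overlapped. The order then broke once: *Nr1h2* did not fall below 36.7 in any library, and *Scap*, the next gene with a median of 13.9, did not exceed 18.1. Below *Scap*, every gene's range overlapped that of the next, so that the order within this part was not resolved. *Msmo1* at 10.1 and *Hmgcs1* at 8.89 led the enzymes, and *Hsd17b7* at 0.492 was the lowest of the 29. Of the pair of LXR genes, *Nr1h3*, encoding LXR alpha, stood at 0.839 and did not exceed 2.24 CPM per kilobase in any library.

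**Figure D1:**
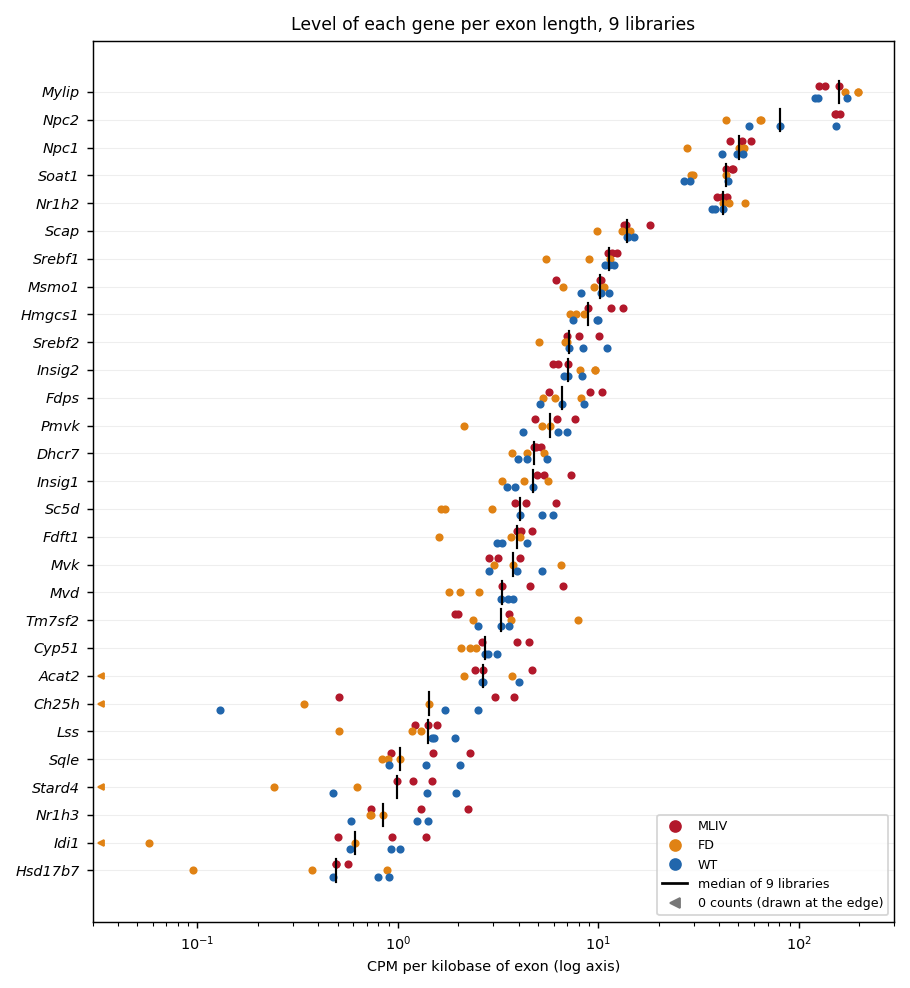
Level of each of the 29 genes in CPM per kilobase of exon (log axis), 1 point per library, coloured by group, with the median of the 9 libraries as a black bar and genes ordered by it. The highest 5 genes have medians between 41.9 and 158, and the other 24 have medians between 0.492 and 13.9; triangles at the left edge mark 4 genes with 0 counts in FD replicate 3.

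In MLIV against WT, the comparison that asks what loss of *Mcoln1* changes, *Npc2* was the one gene of the 29 that passed, and it did so only without the library labelled WT replicate 3. With all 9 libraries, 0 of 29 genes passed an adjusted p below 0.05 (edgeR quasi-likelihood test, Benjamini-Hochberg adjustment over 15340 genes), where the percentage of all tested genes called was 0, with or without a fold threshold. By unadjusted p below 0.05, 2 of the 29 were counted, *Npc2* and *Soat1*, against 4.64% of all genes. DESeq2 called 0 of 29 and 13 of all genes. With 8 libraries, 1 of 29 passed, higher in MLIV, against 1.55% of 17440 genes called higher and 1.7% in either direction. It also had an absolute log2 fold change above 1, as did 1.04% of all genes, and 2 of 29 had an unadjusted p below 0.05, against 10.1%. The median log2 fold change of the 29 genes was 0.09 with 9 libraries and 0.22 with 8, where all tested genes had medians of -0.03 and -0.13. Of the 29, 20 were above 0 with 9 libraries and 21 with 8, against 46.7% and 40.4% of all genes. Scaled by library totals in place of TMM, 11 were above 0 and 18 below with 9 libraries, and 15 above and 14 below with 8, so that the split turned with 9 libraries. Between groups without overlap, 1 gene was higher and 0 lower with 9 libraries (*Insig1*, against 6.56% and 6.05% of all genes), and 5 were higher and 0 lower with 8 (against 17.3% and 15.7%), so that neither count of higher genes exceeded its background share.

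*Npc2*, on chromosome 12 from 84754559 to 84773112 in mm10, encodes the soluble carrier that takes cholesterol out of the lysosome lumen. It measured 525, 495 and 498 CPM in the MLIV libraries, against 183, 263 and 500 CPM in the WT libraries. The 3 MLIV libraries lay close together and above WT replicates 1 and 2, while the library labelled WT replicate 3 lay among them. The log2 fold change of *Npc2* in MLIV against WT was 0.68 ± 0.31 (SE) with 9 libraries, with a 95% interval of 0.00 to 1.36 and an edgeR adjusted p of 0.999. With 8 libraries it was 1.17 ± 0.20, with an interval of 0.74 to 1.61 and an edgeR adjusted p of 0.00598. In the 8-library comparison *Npc2* passed in 14 of 15 alternatives, with adjusted p between 9.27e-08 and 0.199. The exception left out WT replicate 1, with a log2 fold change of 0.93 against the single remaining WT library, assumed to vary like the other groups. WT replicate 1 held the lowest *Npc2* value of the WT libraries, 183 CPM, and had counts for the most genes of all libraries. The part of that wider detection in the call was not tested.

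*Npc1* encodes the membrane protein that receives cholesterol from NPC2, and its level differed little between groups. It ranged between 237 and 299 CPM in MLIV, 144 and 276 CPM in FD, and 216 and 275 CPM in WT, and the ranges overlapped. For *Npc1* the log2 fold change in MLIV against WT was 0.11 with a 95% interval of -0.36 to 0.58 with 9 libraries, and 0.18 with an interval of -0.37 to 0.72 with 8. Whether the changes of *Npc1* and *Npc2* differ was not tested. *Stard4*, which encodes a cytosolic sterol carrier, was low, at 4.42, 2.94 and 3.56 CPM in MLIV, 1.87, 0.723 and 0 CPM in FD, and 4.16, 1.42 and 5.84 CPM in WT.

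*Soat1* encodes the enzyme that esterifies cholesterol for storage in lipid droplets, and its highest values outside MLIV were in FD replicate 3 and the library labelled WT replicate 3. It measured 224, 223 and 208 CPM in the MLIV libraries, 143, 139 and 206 CPM in FD, and 127, 137 and 213 CPM in WT. MLIV lay above WT replicates 1 and 2 but not above the library labelled WT replicate 3. The log2 fold change of *Soat1* in MLIV against WT was 0.46 ± 0.21 with 9 libraries (edgeR adjusted p = 0.999). With 8 libraries it was 0.72 ± 0.18 and narrowly missed the threshold (edgeR adjusted p = 0.0574), and DESeq2 gave an adjusted p of 0.00724. Without FD replicate 3, which enters the shared estimate of the spread, the *Soat1* log2 fold change was 0.76 (edgeR adjusted p = 6.11e-05). No filter and only the 2 groups compared also called *Soat1* with 8 libraries, and the replicate block did not. The *Soat1* call thus turned with the setting. *Ch25h*, encoding cholesterol 25-hydroxylase, an enzyme that makes an oxysterol and is interferon-inducible, had between 0.689 and 5.13 CPM in MLIV, 0 and 1.93 CPM in FD, and 0.174 and 3.40 CPM in WT. These counts could not show a difference: the 95% interval of *Ch25h* in MLIV against WT ran from -2.25 to 3.76 on the log2 scale.

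**Figure D2:**
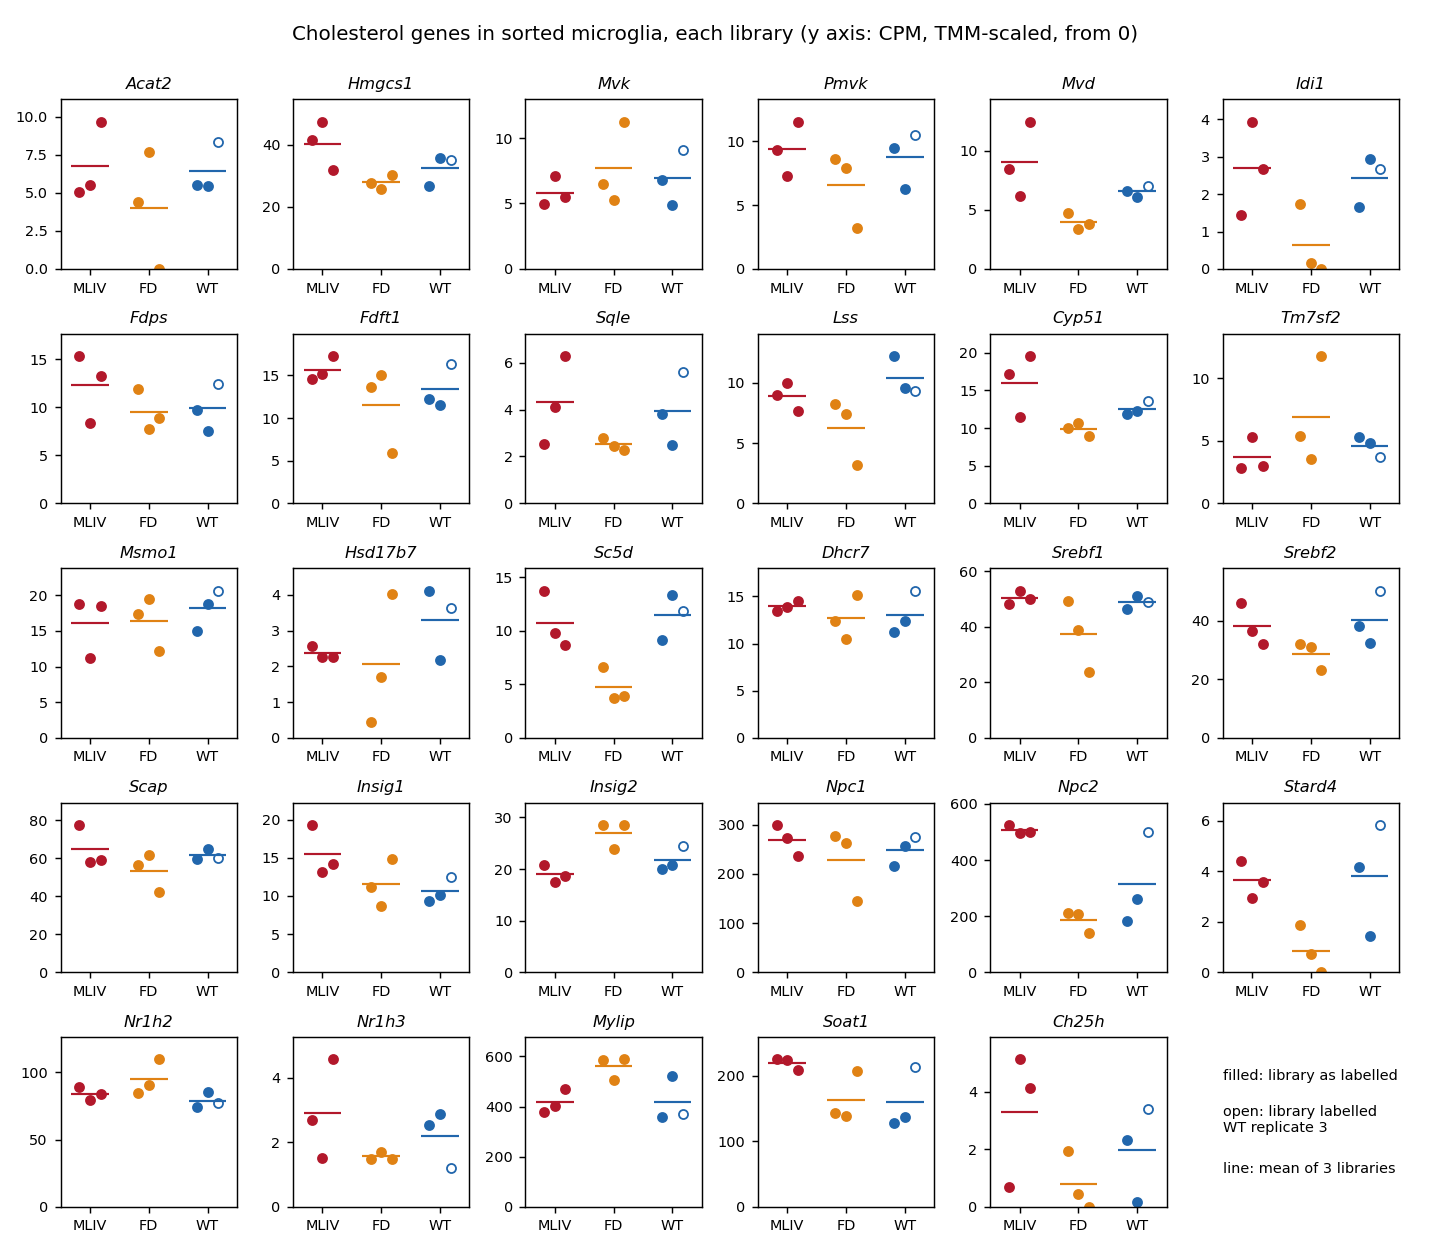
CPM of each of the 29 genes in every library, with groups in the order MLIV, FD, WT, a linear axis from 0 in each panel and a line at the mean of 3 libraries; the open circle is the library labelled WT replicate 3. *Npc2* sits between 495 and 525 CPM in MLIV and between 141 and 211 CPM in FD, and the open circle of *Npc2* at 500 CPM lies with MLIV.

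None of the 16 synthesis enzymes passed in MLIV against WT with 9 or with 8 libraries, and none had an unadjusted p below 0.05. Their log2 fold changes ran from -0.49 to 0.46 with 9 libraries, 10 above 0 and 6 below, and the 95% interval lay within -1 and 1 for 7 of the 16. Summed over the 16 enzymes, the level was 178 ± 8.34 CPM in MLIV and 164 ± 18.4 CPM in WT (SD, n = 3 each), with libraries at 169 to 185 CPM in MLIV and 151 to 185 CPM in WT. Scaled by library totals in place of TMM, the order turned, with means of 167 CPM in MLIV and 170 CPM in WT. *Hmgcs1* encodes a synthase early in the mevalonate steps and measured 41.4, 47.4 and 31.8 CPM in MLIV, 27.6, 25.8 and 30.4 CPM in FD, and 26.8, 35.8 and 35.1 CPM in WT. *Fdft1*, encoding squalene synthase, measured 14.6, 15.1 and 17.3 CPM in MLIV, 13.6, 15.1 and 5.96 CPM in FD, and 12.2, 11.6 and 16.4 CPM in WT. *Dhcr7*, encoding the enzyme of the last step of the Kandutsch-Russell branch, measured 13.4, 13.8 and 14.5 CPM in MLIV, 12.4, 10.4 and 15.1 CPM in FD, and 11.2, 12.4 and 15.6 CPM in WT. *Fdft1* and *Dhcr7* were without overlap above WT replicates 1 and 2 in MLIV and overlapped once all 3 WT libraries were counted. The *Fdft1* value is uncertain because 773 bases, 20.9% of its exon length, are shared with *Ctsb* on the opposite strand and the counting used no strand. The same holds, for smaller shares of the exon length, for *Lss* (6.02%), *Npc1* (3.15%) and *Srebf1* (2.49%).

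The sensing genes gave no call in MLIV against WT either. *Insig1*, whose product retains SCAP in the endoplasmic reticulum and which is itself an SREBP target, measured 19.3, 13.1 and 14.2 CPM in MLIV, 11.2, 8.74 and 14.9 CPM in FD, and 9.29, 10.1 and 12.5 CPM in WT. All 3 MLIV libraries lay above all 3 WT libraries. The log2 fold change of *Insig1* was 0.54 ± 0.29 with 9 libraries (edgeR adjusted p = 0.999) and 0.67 ± 0.34 with 8 (edgeR adjusted p = 0.558). *Srebf1* and *Srebf2* encode the SREBP factors, and *Scap* their escort to the Golgi. *Srebf1* ranged between 48.3 and 53.0 CPM in MLIV and 46.4 and 51.2 CPM in WT, and *Scap* between 57.9 and 77.6 CPM in MLIV and 59.8 and 64.7 CPM in WT. The 95% intervals of *Srebf1* and *Scap* in MLIV against WT, -0.44 to 0.53 and -0.31 to 0.46 with 9 libraries, bound a change in either transcript below 1 on the log2 scale. Activity of SREBP proteins is set by cleavage, which transcript counts do not measure.

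In FD against WT, which shares its WT libraries with the comparison above, none of the 29 genes passed, and most enzymes had values below WT. With 9 libraries 0 of 29 passed with edgeR, against 0.339% of all genes, and 4 had an unadjusted p below 0.05, against 8.01%. With 8 libraries 0 of 29 passed, against 0.31%, or 0.269% with an absolute log2 fold change above 1 (0.306% with 9), and 1 had an unadjusted p below 0.05, against 4.2%. DESeq2 called 1 of 29 with 9 libraries, where it called 175 of all genes, and 0 with 8. The median log2 fold change of the 29 genes was -0.35 with 9 libraries and -0.26 with 8, beside -0.08 and -0.12 for all tested genes. Of the 29 genes 7 were above 0 with 9 libraries and 9 with 8, against 42.6% and 39.9% of all genes, and of the 16 enzymes 14 were below 0 with 9 libraries and 12 with 8. Between groups without overlap, 5 of 29 genes were lower and 0 higher with 9 libraries, against 5.76% and 6.87% of all genes. With 8 libraries 6 were lower, against 9.04%, and 2 were higher (*Insig2* and *Soat1*), against 9.07%. FD replicate 3 gave the lowest value of the 9 libraries for 14 of the 29 genes, as it did for 34.6% of all tested genes, and it alone had 0 counts of *Acat2*, *Idi1*, *Stard4* and *Ch25h*. In sorted bulk cells, fewer cells with a transcript and less of it per cell cannot be told apart.

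*Sc5d* encodes the sterol desaturase of the step before the last, and had the lowest unadjusted p of the 29 genes in FD against WT. It measured 6.63, 3.71 and 3.89 CPM in the FD libraries, against 9.10, 13.4 and 11.8 CPM in the WT libraries, without overlap. The MLIV libraries, at 13.8, 9.76 and 8.68 CPM, lay in the WT range or next to it. The log2 fold change of *Sc5d* in FD against WT was -1.27 ± 0.35 with 9 libraries (unadjusted p = 0.0031 and edgeR adjusted p = 0.311) and -1.25 ± 0.42 with 8 (edgeR adjusted p = 0.815). DESeq2 called *Sc5d* with 9 libraries at an adjusted p of 0.0405.

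Another 4 genes were lower in every FD library than in every WT library, by less. *Mvd*, encoding mevalonate diphosphate decarboxylase, measured 4.76, 3.35 and 3.82 CPM in FD, against 6.63, 6.07 and 7.0 CPM in WT, with a log2 fold change of -0.72 ± 0.38 (edgeR adjusted p = 0.666). *Lss*, encoding lanosterol synthase, measured 8.21, 7.42 and 3.22 CPM in FD, against 12.2, 9.53 and 9.33 CPM in WT, with a log2 fold change of -0.72 ± 0.37 (edgeR adjusted p = 0.663). *Cyp51*, encoding the demethylase that acts on lanosterol, measured 9.96, 10.7 and 8.94 CPM in FD, against 11.9, 12.3 and 13.6 CPM in WT, with a log2 fold change of -0.35 ± 0.26 (edgeR adjusted p = 0.761). In MLIV, *Lss* measured 8.96, 9.95 and 7.68 CPM. *Srebf2*, the SREBP gene most tied to cholesterol synthesis, measured 32.0, 31.1 and 23.1 CPM in FD, against 38.2, 32.5 and 50.4 CPM in WT, with a log2 fold change of -0.49 ± 0.22 (edgeR adjusted p = 0.615). The gap of *Srebf2* between the nearest FD and WT libraries, 32.0 and 32.5 CPM, was small beside the spread within either group.

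In FD against WT with 9 libraries, 7 of the 29 genes had log2 fold changes above 0. They were *Tm7sf2* (0.58), *Mylip*, *Insig2*, *Nr1h2*, *Mvk* (0.15), *Insig1* (0.13) and *Soat1* (0.03). *Nr1h3*, the remaining LXR-arm gene, had a log2 fold change below 0. *Mylip*, an LXR target, measured 586, 507 and 588 CPM in FD, against 360, 520 and 371 CPM in WT, with a log2 fold change of 0.43 ± 0.17 (edgeR adjusted p = 0.583) and overlap between the groups. *Insig2*, a homologue of *Insig1* that is not itself induced by SREBP, measured 28.5, 23.9 and 28.5 CPM in FD, against 19.9, 20.8 and 24.4 CPM in WT, with a log2 fold change of 0.31 ± 0.19 (edgeR adjusted p = 0.713). *Nr1h2* ranged between 84.6 and 110 CPM in FD and between 74.3 and 85.1 CPM in WT. *Nr1h3* was near the lower end of detection for the set, at 2.67, 1.5 and 4.56 CPM in MLIV, 1.49, 1.71 and 1.47 CPM in FD, and 2.54, 2.88 and 1.19 CPM in WT. The log2 fold change of *Nr1h3* in FD against WT was -0.50 with 9 libraries (edgeR adjusted p = 0.881) and -0.80 with 8 (edgeR adjusted p = 0.983), where FD lay below WT without overlap.

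**Figure D3:**
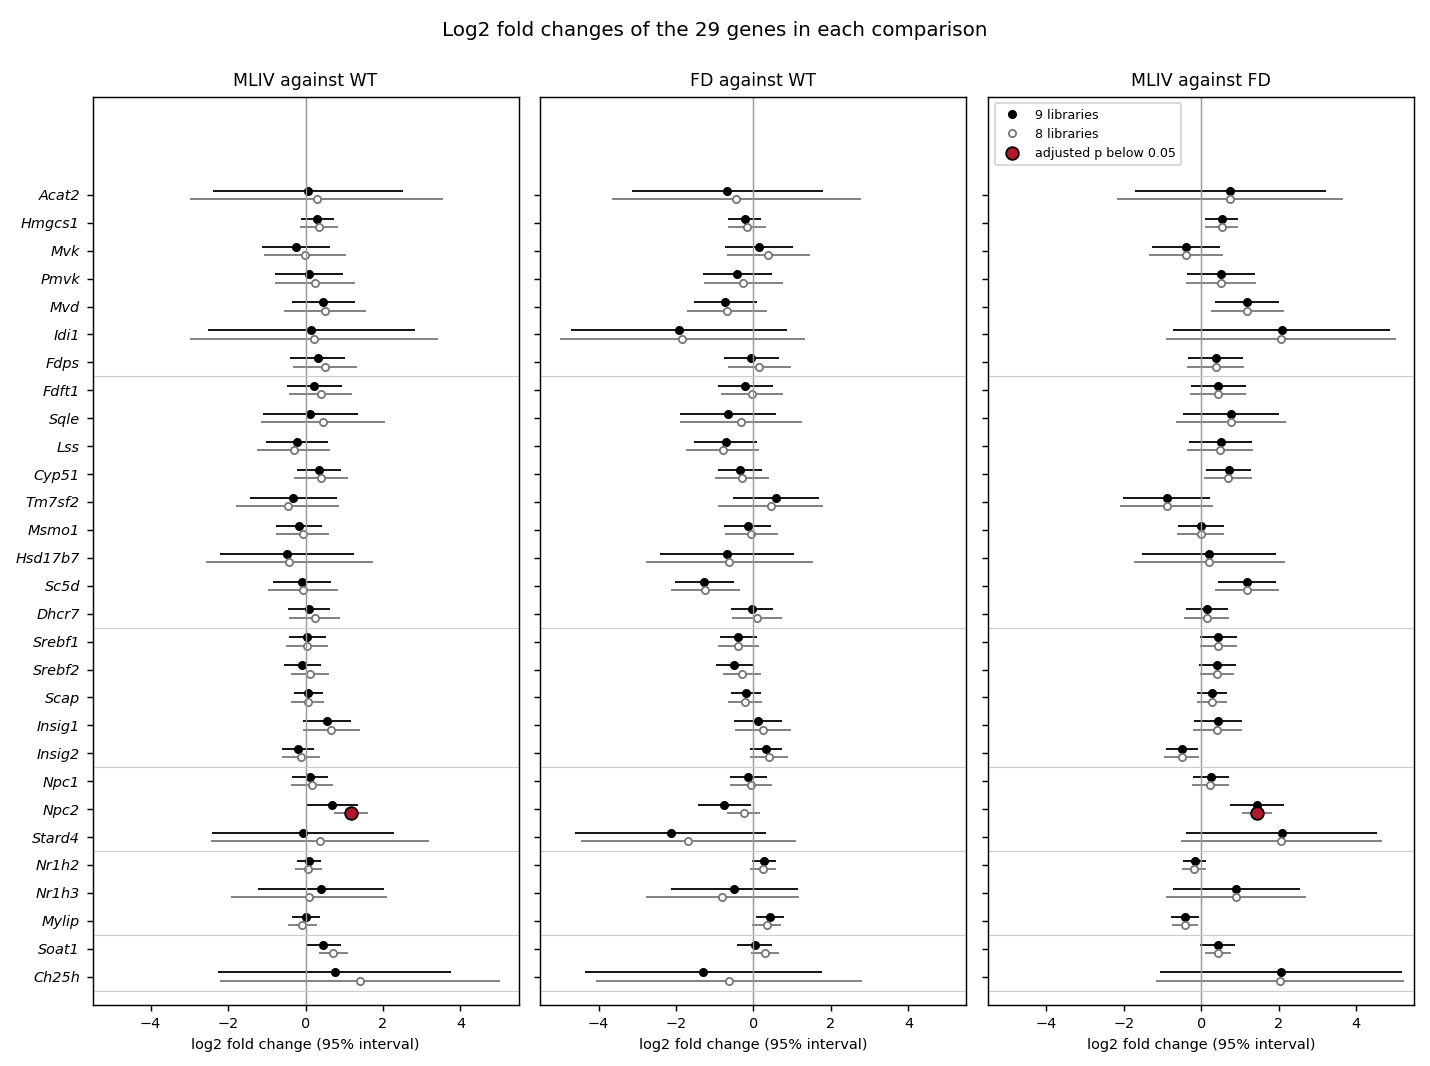
Log2 fold change of each gene with its 95% interval in its 3 panels, MLIV over WT, FD over WT and MLIV over FD, from 9 libraries (black) and from 8, without the library labelled WT replicate 3 (open). A red point marks an edgeR adjusted p below 0.05: *Npc2* in MLIV against WT (1.17) and in MLIV against FD (1.43), both from 8 libraries; thin lines separate the role groups.

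MLIV against FD compares both models directly and does not need the WT libraries, apart from the shared estimate of the spread. *Npc2* again was the one gene past the test, with the 8-library estimate. With 9 libraries 0 of 29 passed with edgeR, against 1.26% of all genes, or 0.984% with an absolute log2 fold change above 1. By unadjusted p below 0.05, 7 were counted, against 19.4%. DESeq2 called 4 of 29 with 9 libraries, where it called 1501 of all 15340 genes. With 8 libraries 1 of 29 passed, higher in MLIV, against 3.5% called higher and 5.63% in either direction, or 2.52% with an absolute log2 fold change above 1, and 8 had an unadjusted p below 0.05, against 17.6%. The median log2 fold change was 0.44 with 9 libraries and 0.43 with 8, where all tested genes had medians of 0.03 and -0.03, and 13 of the 16 enzymes were above 0. Of the 29 genes 23 were above 0 with either set of libraries, against 51.9% of all genes with 9 and 48.2% with 8. Between groups without overlap, 8 genes were higher and 2 lower with 9 libraries, against 16% and 11.8% of all tested genes, and likewise 8 and 2 with 8, against 14.2% and 10.5%.

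*Npc2* had 525, 495 and 498 CPM in MLIV, against 211, 209 and 141 CPM in FD, with no overlap and a wide gap. Its difference on the log2 scale was 1.43 ± 0.18 with 8 libraries (95% interval 1.05 to 1.81, edgeR adjusted p = 1.78e-04) and 1.44 ± 0.31 with 9 (95% interval 0.75 to 2.13, edgeR adjusted p = 0.0545). The size of the *Npc2* difference hardly moved with the library labelled WT replicate 3, and the spread estimated with it did. In the 8-library comparison *Npc2* passed in 15 of 15 alternatives, and in the 9-library comparison it passed in 7 of 16, with adjusted p between 4.94e-05 and 0.206. The neutrophil markers given above moved with this contrast, at 139 to 261 CPM in MLIV and 1.34 to 4.98 CPM in FD, and their part in it was not tested. The border macrophage markers overlapped between MLIV and FD.

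Among the enzymes, *Sc5d* and *Mvd* had the largest differences without overlap between MLIV and FD. *Sc5d* had 13.8, 9.76 and 8.68 CPM in MLIV, against 6.63, 3.71 and 3.89 CPM in FD, with a log2 fold change of 1.18 ± 0.35 (9 libraries, edgeR adjusted p = 0.0908). *Mvd* had 8.47, 6.16 and 12.5 CPM in MLIV, against 4.76, 3.35 and 3.82 CPM in FD, with a log2 fold change of 1.18 ± 0.38 (edgeR adjusted p = 0.109). Both were also called by DESeq2, with adjusted p of 0.0203 for *Sc5d* and 0.0297 for *Mvd*, as were *Npc2* and, lower in MLIV, *Mylip*. *Cyp51* had 17.1, 11.4 and 19.6 CPM in MLIV, against 9.96, 10.7 and 8.94 CPM in FD, with a log2 fold change of 0.70 ± 0.26 (edgeR adjusted p = 0.167). *Hmgcs1*, whose values stand above, had a log2 fold change of 0.53 ± 0.20 (edgeR adjusted p = 0.162). With 8 libraries and without FD replicate 3, *Hmgcs1*, *Mvd*, *Sc5d*, *Npc2* and *Soat1* passed in MLIV against FD. These were 5 of 29, against 1 with that library. *Hmgcs1* then had a log2 fold change of 0.61 (edgeR adjusted p = 0.028). The count of all genes past the test in that setting is not given here, so the rise cannot be read as particular to the 29. Summed over the 16 enzymes, the level was 178 ± 8.34 CPM in MLIV and 133 ± 8.76 CPM in FD (SD, n = 3 each), with all MLIV libraries, at 169 CPM or more, above all FD libraries, at 142 CPM or less. Scaled by library totals the ranges were 160 to 175 CPM in MLIV and 120 to 149 CPM in FD.

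*Insig2* and *Mylip* were lower in every MLIV than in every FD library. *Insig2* had 20.7, 17.5 and 18.6 CPM in MLIV, against 28.5, 23.9 and 28.5 CPM in FD, with a log2 fold change of -0.51 ± 0.19 (9 libraries, edgeR adjusted p = 0.163). *Mylip* had 377, 403 and 472 CPM in MLIV, against 586, 507 and 588 CPM in FD, with a log2 fold change of -0.42 ± 0.17 (edgeR adjusted p = 0.187). *Srebf2* had 46.1, 36.5 and 32.0 CPM in MLIV, against 32.0, 31.1 and 23.1 CPM in FD; the nearest libraries were equal when rounded. *Soat1* was separated only by the gap between 208 and 206 CPM.

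**Figure D4:**
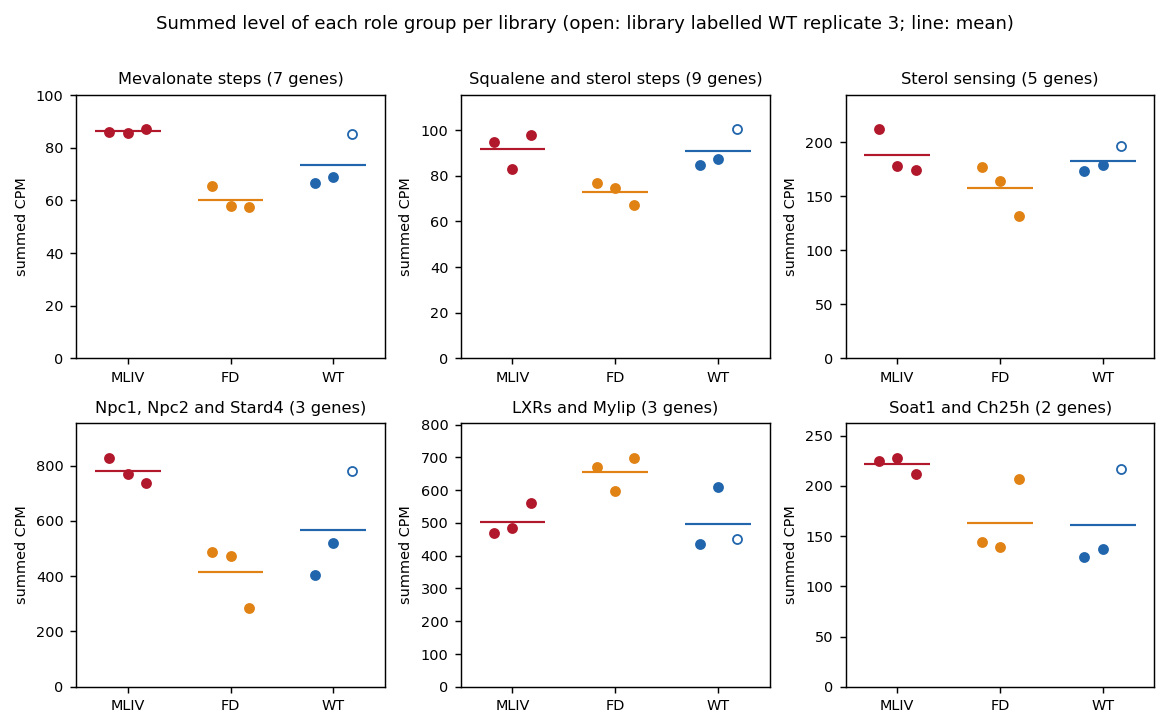
Summed CPM of each role group in every library, with groups in the order MLIV, FD, WT and a line at the mean; the open circle is the library labelled WT replicate 3. The 7 mevalonate genes sum to 85.7 to 87.0 CPM in MLIV, 57.6 to 65.6 CPM in FD and 66.6 to 85.1 CPM in WT, and the transport group, most of which is *Npc1* and *Npc2*, to 739 to 829 CPM in MLIV, 285 to 489 CPM in FD and 403 to 780 CPM in WT.

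The remaining enzymes showed no call in any comparison with edgeR and overlapped between groups throughout. *Acat2* (acetoacetyl-CoA thiolase), *Mvk* and *Pmvk* (mevalonate kinase and phosphomevalonate kinase), *Idi1* (isopentenyl diphosphate isomerase), *Fdps* (farnesyl diphosphate synthase), *Sqle* (squalene epoxidase), *Tm7sf2* (a sterol reductase), *Msmo1* (methylsterol monooxygenase) and *Hsd17b7* (a ketosteroid reductase) make up this group. *Msmo1* was the highest, at 11.2 to 18.8 CPM in MLIV, 12.1 to 19.5 CPM in FD and 15.0 to 20.7 CPM in WT. *Fdps* ranged over 8.32 to 15.3 CPM in MLIV, 7.72 to 11.9 CPM in FD and 7.5 to 12.4 CPM in WT. *Pmvk* ranged over 7.29 to 11.6 CPM in MLIV, 3.22 to 8.65 CPM in FD and 6.31 to 10.5 CPM in WT. The other 6 were lower, and none of them exceeded the highest *Fdps* value. *Mvk* ranged over 4.94 to 7.07 CPM in MLIV, 5.26 to 11.3 CPM in FD and 4.91 to 9.07 CPM in WT. *Tm7sf2* ranged over 2.84 to 5.29 CPM in MLIV, 3.51 to 11.8 CPM in FD and 3.71 to 5.28 CPM in WT. *Acat2* ranged over 5.03 to 9.68 CPM in MLIV, 0 to 7.69 CPM in FD and 5.46 to 8.33 CPM in WT. The last 3 stayed below 10 CPM everywhere. *Sqle* ranged over 2.53 to 6.28 CPM in MLIV, 2.28 to 2.8 CPM in FD and 2.47 to 5.58 CPM in WT. *Hsd17b7* ranged over 2.25 to 2.58 CPM in MLIV, 0.436 to 4.02 CPM in FD and 2.18 to 4.12 CPM in WT. *Idi1* ranged over 1.44 to 3.94 CPM in MLIV, 0 to 1.74 CPM in FD and 1.66 to 2.94 CPM in WT. The low genes had wide intervals: that of *Idi1* in FD against WT ran from -4.71 to 0.87 and that of *Acat2* from -3.14 to 1.79 with 9 libraries. *Acat2* had 234 counts in FD replicate 2 and 0 in FD replicate 3, a span within 1 group wider than that between group means. Reads of *Acat2* and of its neighbouring copy *Acat3* may be divided uncertainly by the counting. Over all 29 genes, the 95% interval lay within -1 and 1 for 15 genes in MLIV over WT (50.3% of all tested genes), 15 in FD over WT (46.8%) and 11 in MLIV over FD (41.4%) with 9 libraries, and a change of 2-fold was not bounded for the others.

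A further 3 lists of the pathway, with 24 genes, were counted beside the 29. Of 9 SREBP1 targets of fatty acid synthesis, 0 passed with edgeR in any of the 6 comparisons, against 0 to 5.63% of all genes. At most 1 had an unadjusted p below 0.05 in a comparison, against 4.2% to 19.4% of all genes. Of 9 genes of lysosomal and contact-site cholesterol handling, 3 were higher and 1 lower in MLIV against FD with 8 libraries, beside 3.5% and 2.13% of all genes. *Lamp1*, encoding the main lysosomal membrane glycoprotein, had 1634, 1558 and 1350 CPM in MLIV, 727, 743 and 514 CPM in FD, and 682, 936 and 1490 CPM in WT. The log2 fold change of *Lamp1* was 1.19 ± 0.17 in MLIV against FD (edgeR adjusted p = 6.93e-04) and 0.90 ± 0.20 in MLIV against WT (edgeR adjusted p = 0.0304), both with 8 libraries, and with 9 libraries 1.19 in MLIV against FD (edgeR adjusted p = 0.0467) but 0.55 in MLIV against WT (edgeR adjusted p = 0.999), where the call was lost. As with *Npc2*, the library labelled WT replicate 3 lay in the MLIV range.

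*Lamp2* and *Scarb2*, which encode further lysosomal membrane proteins, had log2 fold changes of 0.67 ± 0.16 and 0.52 ± 0.13 in MLIV against FD with 8 libraries (edgeR adjusted p = 0.0212 and 0.0283). *Gramd1a*, encoding a sterol transfer protein of endoplasmic reticulum contact sites, was lower, at 145, 158 and 167 CPM in MLIV, against 217, 216 and 227 CPM in FD (log2 fold change -0.49 ± 0.12, edgeR adjusted p = 0.0293). With 9 libraries none of *Lamp2*, *Scarb2* and *Gramd1a* passed (edgeR adjusted p = 0.102, 0.0851 and 0.109), and the list held 1 higher and 0 lower genes, against 1.26% of all genes called in either direction. Of 6 LXR targets, 1 passed with 8 libraries, *Apoe*, encoding the main apolipoprotein of brain lipid transport. Of all genes, 1.55% were called higher in MLIV against WT and 3.5% in MLIV against FD with 8 libraries. Its log2 fold change was 2.56 ± 0.32 in MLIV against WT (edgeR adjusted p = 0.00206). In MLIV against FD it was 1.97 ± 0.26 (edgeR adjusted p = 0.00174). With 9 libraries neither *Apoe* call held, at 0.66 in MLIV against WT (edgeR adjusted p = 0.999) and 1.97 in MLIV against FD (edgeR adjusted p = 0.26). *Apoe* had 6762 CPM in the library labelled WT replicate 3, above the 3717 to 5121 CPM of MLIV. The other 5 LXR targets, among them the efflux transporter genes *Abca1* and *Abcg1*, gave no call with edgeR in any of the 6 comparisons.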

How the data were processed

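RNA from sorted microglia was sequenced in 9 libraries (3 MLIV, 3 FD, 3 WT) with a stranded total RNA kit. Reads were mapped by the authors to mm10 (STAR 2.5.1). Per the file headers, featureCounts 1.4.6-p3 then counted them for 21 libraries together, and the table holds 9. The deposited counts are whole numbers, not normalized, for 24421 genes. The command sets no option for strand or pairs, so each mate was counted, on either strand. The authors also deposited 2 tables of their own comparisons, with a mean normalized signal, log2 fold changes, a test score and p-values, which were not used here. All per-sample columns were used.

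Genes were kept by filterByExpr (15340 with 9 libraries, 17440 with 8), scaled by TMM factors and fitted with 1 mean per group by the robust quasi-likelihood test of edgeR 4.0.16 in R 4.3.3, with limma 3.58.1. A gene passed at a Benjamini-Hochberg adjusted p below 0.05 over all tested genes, with any fold. Errors were obtained from the log2 fold change and its F statistic, and intervals are 95%. CPM values use the TMM factors of the 9 libraries. The 8-library comparisons leave out the library labelled WT replicate 3. Alternatives were DESeq2 1.42.0, RLE factors, library totals, other filters, only the 2 groups compared, a replicate block, leaving out each library and a fold threshold. The fit was checked on simulated counts with the same spread for every gene and no odd library. That check does not cover calls that turned with the choice of libraries. No 2 libraries agreed within sampling noise. The study's text names more mice per condition than the 3 libraries per group, and nothing in the labels says which animals a library came from. The spread of *Xist* within MLIV, given above, means that those libraries did not all come from the same animals. For the rest, p-values cover only a spread among libraries that could be technical. Promoters were read from a RefSeq table.

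The genes and lists were chosen with earlier results of these data known. Library values are given for genes that passed or whose groups did not overlap in any comparison, and ranges for the rest. Genes of the further lists were named where they passed or as examples of a list, and *Mcoln1* and *Gla* to check the labels. Some items withheld for evaluation are not reported here.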

Additional observations from a re-analysis of the deposited data

Results flagged for a closer look

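*Npc2* differed between the models: its change against the shared WT libraries was 1.17 on the log2 scale in MLIV and -0.26 in FD with 8 libraries, and the difference between both, tested as MLIV against FD, was 1.43 ± 0.18 (edgeR adjusted p = 1.78e-04; 1.44 and 0.0545 with 9 libraries), higher in 3 of 3 MLIV libraries than in every FD library. With 9 libraries the changes against WT were 0.68 in MLIV and -0.75 in FD (edgeR adjusted p = 0.999 and 0.597), and without WT replicate 2 the 8-library value in FD was 0.05.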

How the results depend on the processing

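Counts of genes past the test, of 29, moved as follows. In FD against WT with 9 libraries DESeq2 called 1, against 0 with edgeR, and 175 of all genes, against 52. In MLIV against FD with 9 libraries DESeq2 called 4, against 0. RLE factors, library totals, at least 10 counts in every library and only the 2 groups compared called 1 each. Over all genes, DESeq2 called 1501 and RLE factors 288 in that comparison, against 194 with the main setting. All-gene counts for the other settings are not given here, so moves under them cannot be read as particular to the 29. In MLIV against WT with 8 libraries DESeq2, no filter and only the 2 groups compared called 2 each, *Npc2* and *Soat1*, against 1. In MLIV against FD with 8 libraries DESeq2 called 4 and library totals 2, *Npc2* and *Mylip*, against 1. Leaving out 1 library gave 0 to 1 genes in MLIV against WT and 0 to 1 in MLIV against FD with 9 libraries, 0 to 2 in MLIV against WT with 8 (0 without WT replicate 1) and 1 to 5 in MLIV against FD with 8 (5 without FD replicate 3). Requiring an absolute log2 fold change above 1 changed none of the 6 counts. No sign turned among called values. With library totals, all genes together shifted by -0.20 (median, log2) in MLIV against WT and by -0.12 in MLIV against FD with 8 libraries. In MLIV against WT, 26 of 29 genes were above the median of all genes with 8 libraries and 20 with 9, with either scaling. With TMM that median was itself below 0, at -0.13 with 8 libraries and -0.03 with 9. Without FD replicate 3, chosen after seeing the data, the 16 enzymes summed to a mean of 137 CPM in FD.

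The replicate number did not pair the libraries: 1 of 9 same-numbered pairs had deviations correlated above 0.1 (range -0.30 to 0.19), and 2 of 9 libraries correlated best with their own number. With the replicate block the counts were 0 in each comparison with 9 libraries, and with 8 they were 1 in MLIV against WT, 0 in FD against WT and 1 in MLIV against FD, so that it changed no call. The intervals of *Acat2*, *Idi1*, *Stard4*, *Ch25h*, *Hsd17b7*, *Sqle* and *Nr1h3* in MLIV against WT with 9 libraries all extended beyond -1 and 1, and the part of depth in this was not tested.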
